A study of Mus musculus with 12 samples.

Results

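A set of 37 genes of endoplasmic reticulum (ER) stress and protein folding was followed on 12 Affymetrix arrays of mouse myocardium. The genes were chosen by symbol, and each was represented by the probe set of highest mean over the 12 arrays. A probe set was found for 33 of the 37, out of 19505 genes with a named probe set, and 32 of the 33 were tested among 13653 genes. Pdia4, Eif2s1, Manf and Sesn2l were not analysed here, Ero1l was matched through its current symbol Ero1a, and Fgf21 fell under the filter on low signal.

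The AngIV group was 4 mice made diabetic by daily streptozotocin injections over 5 days, kept when fasting glucose reached 16.7 mM, and then infused with angiotensin IV at 2.88 mg/kg/day between weeks 8 and 24. The DM group was 4 mice made diabetic in the same way, with no infusion named in the labels. The NC group was 4 mice injected with vehicle for 5 days. All 3 groups carry a label of 6 months, and neither strain, allele nor sex is given. Streptozotocin is toxic to pancreatic beta cells, so that the diabetes modelled is one of insulin lack, and no group received angiotensin IV without diabetes. Groups follow the sample titles, because the disease state field contradicts them in calling NC diabetic and AngIV negative control. Each array was taken as 1 mouse, and p-values measure the spread between these arrays.

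The ER folds secreted and membrane proteins with the help of lumenal chaperones and of enzymes that form disulfide bonds. When unfolded protein accumulates, the membrane sensors IRE1, PERK and ATF6 start the unfolded protein response: IRE1 splices the mRNA of Xbp1, PERK phosphorylates the translation factor eIF2 and so favours translation of ATF4, and ATF6 is cut to release a transcription factor. Their targets include chaperones, the machinery that returns misfolded protein to the cytosol for degradation, and, through ATF4 and CHOP, genes of amino acid supply and cell death. Heart muscle depends on the ER and its sarcoplasmic extension for calcium storage as well as for folding. Splicing, phosphorylation and cleavage of these proteins are not seen by a gene-level array, which reports RNA alone.

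The sequences upstream of Herpud1 and Hspa5 are shown because these genes carried the changes with the smallest p among the members between AngIV and NC, and because known response elements lie in them. Both are the 250 bases before the RefSeq gene start in build GRCm38.p6, on the plus strand, at chr8:94386179-94386428 for Herpud1 and chr2:34771840-34772089 for Hspa5. Capitals mark matches to motifs of the stress response.
Herpud1: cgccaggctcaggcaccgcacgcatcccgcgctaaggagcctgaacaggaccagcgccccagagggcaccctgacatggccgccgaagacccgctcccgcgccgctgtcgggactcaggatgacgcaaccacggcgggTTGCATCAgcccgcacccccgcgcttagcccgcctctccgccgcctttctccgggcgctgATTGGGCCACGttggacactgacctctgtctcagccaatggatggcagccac
Hspa5: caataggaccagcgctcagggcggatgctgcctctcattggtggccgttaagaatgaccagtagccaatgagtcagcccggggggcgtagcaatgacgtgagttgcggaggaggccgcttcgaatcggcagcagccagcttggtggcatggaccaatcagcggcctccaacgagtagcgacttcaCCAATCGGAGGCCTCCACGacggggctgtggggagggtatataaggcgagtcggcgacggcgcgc

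In the Herpud1 window the run ATTGGGCCACG, at positions -52 to -42 relative to the start, matches ERSE-II (ATTGG and CCACG with 1 base between them), an element through which ATF6 and XBP1 act. The second run in capitals, at positions -112 to -105, matches on the opposite strand the amino acid response element (TGATGNAA), the kind of site that ATF4 binds. In the Hspa5 window the run in capitals, at positions -65 to -47, matches the ER stress response element ERSE (CCAAT and CCACG with 9 bases between them), bound by NF-Y together with ATF6. The Herpud1 window ends in CCAAT, 9 bases and CCAC, the letters of an ERSE up to its last base. That base lies past the window and was not searched, so Herpud1 is counted below as having no ERSE match.

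A RefSeq window was found for 29 of the 33 members, and Derl1, Ppp1r15b, Hyou1 and Atf6 had none. The letters were searched on both strands, and an ERSE match was present in 8 of 29 members (27.59%), against 37 of all 32851 windows (0.1126%). These elements were first described in such chaperone genes, so the members were not an independent choice. The 9 matches of the 8 members are given 5′ to 3′ along the gene, with the fixed letters of the motif in capitals, to show the spacer that differs between genes. Matches that open with CGTGG lie on the strand opposite to the gene.
Hspa5: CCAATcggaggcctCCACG
Calr: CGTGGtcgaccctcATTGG
Hsp90b1 distal: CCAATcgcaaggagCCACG
Hsp90b1 proximal: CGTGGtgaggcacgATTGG
Canx: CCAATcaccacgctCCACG
Pdia6: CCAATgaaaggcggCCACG
Dnajc3: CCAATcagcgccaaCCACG
Creld2: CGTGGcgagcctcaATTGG
Syvn1: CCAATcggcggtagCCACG

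These matches lay at chr2:34772025-34772043 (Hspa5, plus strand), chr8:84847075-84847093 (Calr, minus strand), chr10:86705638-86705656 and chr10:86705533-86705551 (Hsp90b1, minus strand) and chr11:50325800-50325818 (Canx, minus strand). The others lay at chr12:17266491-17266509 (Pdia6), chr14:118937827-118937845 (Dnajc3), chr15:88819520-88819538 (Creld2) and chr19:6046532-6046550 (Syvn1), all on the plus strand. ERSE-II was found in Herpud1 alone among the 29 members, and in 10 of all windows (0.03044%). The amino acid response element was found in 4 of 29 members, namely Asns, Chac1, Fgf21 and Herpud1 (13.79%), against 3.452% of all windows. The element UPRE (TGACGTGG), an XBP1 site, was found in 0 of 29 members and in 0.5631% of all windows. A match is a description of the letters, and a missing match says only that these letters are not in this window.

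The values are log2 signals after robust multi-array averaging (RMA), which are compared for 1 gene across arrays and never between genes. Negative control probe sets gave a background level, their 95th percentile, of 5.39 to 5.60 on single arrays, and the mean of 24 of the 33 members lay above it. All 10 cardiomyocyte markers were above it in every group, and their mean was 11.36 to 11.43 on AngIV arrays, 11.27 to 11.37 on DM arrays and 11.29 to 11.44 on NC arrays. Atrial tissue varied: the atrial myosin light chain Myl7 lay at 3.53 to 3.94 on the AngIV arrays, at 3.97 to 9.68 on the DM arrays and at 3.72 to 10.08 on the NC arrays, and 5 arrays, 0 of AngIV, 3 of DM and 2 of NC, were above the negative controls. The summed log2 signal of the 9 atrial markers with a probe set, of 9 listed, ran from 47.1 to 49.1 in AngIV, 44.2 to 65.7 in DM and 46.5 to 68.2 in NC. The sum over 9 of 10 macrophage markers ran from 52.8 to 61.0 in AngIV, 52.5 to 63.1 in DM and 52.0 to 54.5 in NC, and that over 7 of 8 fibroblast markers from 48.9 to 51.5 in AngIV, 50.5 to 52.3 in DM and 51.4 to 54.5 in NC. All 7 markers of plasma cells, secretory cells rich in ER, were below the negative controls on average, among them Jchain at 2.17 to 3.46 over the 12 arrays. The part of atrial, macrophage and fibroblast tissue in the changes below was not tested beyond the 2 alternatives given with Herpud1 and Hspa5.

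Herpud1 was the 1 ER stress gene that passed the test, and the set as a whole was centred on 0. The median log2 change of the 32 tested members was -0.01 for AngIV against NC, -0.00 for AngIV against DM and -0.00 for DM against NC, beside 0.00, 0.01 and -0.00 over all tested genes. In each of these comparisons 16 members had a positive and 16 a negative change. The standard error of a member's change was 0.126 at the median and 0.089 to 0.217 over the members. Comparisons that share the DM or NC arrays are not independent of each other.

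Between AngIV and NC, limma's moderated test called 1 of 32 members at an adjusted p under 0.05, or 3.13%, beside 2.15% of all tested genes. At an unadjusted p under 0.05 there were 9 members, 2 higher and 7 lower in AngIV (28.1%, beside 18.6% of all genes), and 7 members did not overlap between the groups, 3 higher and 4 lower (21.9%, beside 12.8%). Between AngIV and DM, 0 members were called, beside 0% of all genes. Unadjusted, 5 members passed (15.6%, beside 8.78%), 3 higher and 2 lower, and 1 did not overlap (3.13%, beside 5.76%). Between DM and NC, 0 members were called, beside 0.022% of all genes, 3 passed unadjusted (9.38%, beside 10.7%) and 1 did not overlap (3.13%, beside 5.3%). For the mean of the DM and AngIV groups against NC, 1 member was called (3.13%, beside 1.32%) and 5 passed unadjusted (15.6%, beside 16.4%). With 32 members, a difference of a few genes separates these shares.

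**Figure D1:**
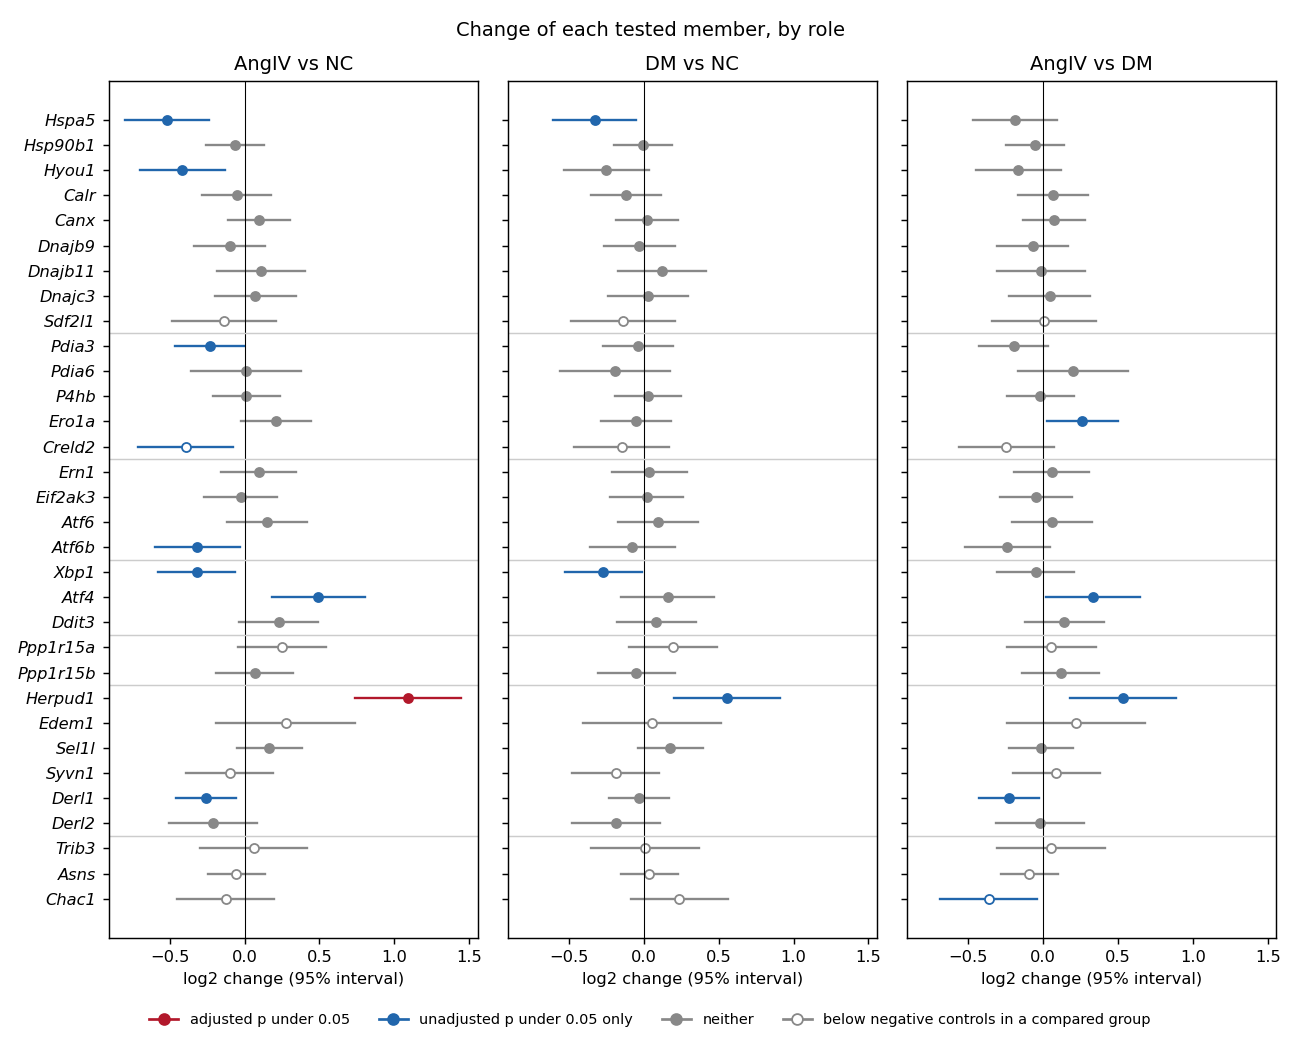
Log2 change of each of the 32 tested members with its 95% interval, for AngIV against NC, DM against NC and AngIV against DM, with horizontal lines between the roles. Red marks the 1 call, Herpud1 at 1.09 between AngIV and NC, blue an unadjusted p under 0.05 only, and open circles a gene below the negative controls in a compared group.

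Herpud1 encodes an ER membrane protein with a ubiquitin-like domain that helps assemble the complex for ER-associated degradation. Its log2 signal was 9.67, 10.14, 10.04 and 10.60 on the AngIV arrays, 9.75, 9.80, 9.39 and 9.37 on the DM arrays and 9.01, 8.89, 9.16 and 9.01 on the NC arrays. Every AngIV and every DM array was above every NC array, while AngIV and DM overlapped, 1 AngIV array lying below 2 of the DM arrays. The group means were 10.11 ± 0.38 in AngIV, 9.58 ± 0.23 in DM and 9.02 ± 0.11 in NC (SD, n = 4 each).

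Herpud1 rose in AngIV over NC by 1.09 ± 0.17 on the log2 scale (SE; 95% interval 0.74 to 1.44; limma adjusted p = 0.00617), a 2.13-fold difference, and ranked 20 by p among all 13653 genes. Against NC the DM mean differed by 0.56 ± 0.17 (limma adjusted p = 0.232) and the AngIV mean differed from DM by 0.53 ± 0.17 (limma adjusted p = 0.444), so the DM mean lay about midway without passing the test on either side. The mean of the DM and AngIV groups rose over NC by 0.82 ± 0.14 (limma adjusted p = 0.0156), a call that was lost without NC replicate 2 (0.78, limma adjusted p = 0.0576). Between AngIV and NC the gene was called in 22 of 23 alternatives, with changes of 0.93 to 1.24 and adjusted p of 0.00102 to 0.0599. With the atrial marker mean as a covariate the change was 1.19 (limma adjusted p = 0.00418). Without the 5 arrays of high Myl7 signal, an alternative chosen after seeing the data that leaves 4 AngIV and 2 NC arrays, it was 1.16 and the call was lost (limma adjusted p = 0.0599), and for the mean of the DM and AngIV groups it was 0.80 (limma adjusted p = 0.406). In bulk tissue, fewer cells of a type and less RNA per cell cannot be told apart, and this holds for every change given here.

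**Figure D2:**
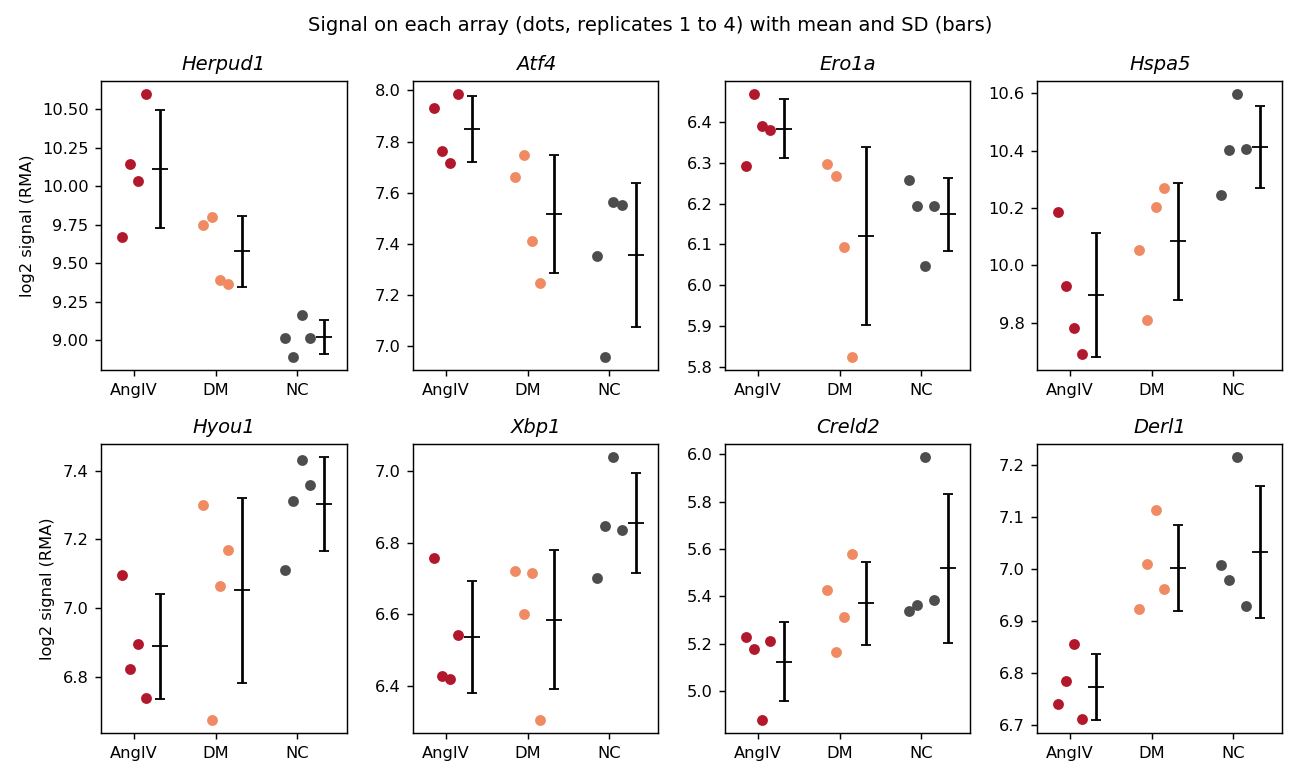
Log2 signal of 8 members on each array, with the mean and SD of each group beside the points and a separate scale for each gene. Herpud1, Atf4 and Ero1a lay higher on all AngIV than on all NC arrays, Hspa5, Hyou1, Creld2 and Derl1 lay lower, and Xbp1 overlapped.

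Of the 6 genes of ER-associated degradation, none but Herpud1 passed the test in any comparison. For AngIV against NC that is 16.7%, beside 2.15% of all genes, and 1 higher and 1 lower passed unadjusted (33.3%, beside 18.6%). Derl1, a derlin of the channel through which misfolded proteins leave the ER, had 6.74, 6.79, 6.86 and 6.71 on the AngIV arrays, 6.92, 7.01, 7.11 and 6.96 on the DM arrays and 7.01, 6.98, 7.22 and 6.93 on the NC arrays. All 4 AngIV arrays were below all DM and all NC arrays, and DM and NC overlapped. The change was -0.26 ± 0.09 for AngIV against NC (limma adjusted p = 0.153) and -0.23 ± 0.09 against DM (limma adjusted p = 0.526).

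Sel1l, the adaptor of the ubiquitin ligase HRD1, had 6.40, 6.70, 6.55 and 6.51 on the AngIV arrays, 6.44, 6.55, 6.64 and 6.58 on the DM arrays and 6.34, 6.20, 6.47 and 6.49 on the NC arrays. The groups overlapped, the 2 lowest signals were NC arrays, and DM differed from NC by 0.18 ± 0.10 (limma adjusted p = 0.566), or by 0.30 without the arrays of high Myl7 signal (limma adjusted p = 0.998). Syvn1, which encodes HRD1 itself, had 5.30, 4.66, 5.07 and 5.08 on the AngIV arrays, 4.89, 4.89, 4.99 and 4.98 on the DM arrays and 4.94, 5.02, 5.44 and 5.10 on the NC arrays. Its group means were below the negative controls in all groups, the groups overlapped, and no fold is given. Derl2, the second derlin, had group means of 6.08 ± 0.25 in AngIV, 6.10 ± 0.24 in DM and 6.29 ± 0.08 in NC. Edem1, which hands misfolded glycoproteins to degradation, had 5.43 ± 0.38 in AngIV, 5.21 ± 0.28 in DM and 5.16 ± 0.42 in NC, below the negative controls in each group.

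None of the 9 tested lumenal chaperones passed the test in any comparison, beside 0% to 2.15% of all genes. For AngIV against NC, 2 of them, Hspa5 and Hyou1, were lower at an unadjusted p under 0.05 (22.2%, beside 18.6% of all genes), 3 had a positive and 6 a negative change, and their median was -0.06. Hspa5 had the smallest p of the members after Herpud1. It encodes BiP (GRP78), the main chaperone of the ER lumen, which also holds the stress sensors inactive. Its log2 signal was 10.18, 9.93, 9.78 and 9.69 on the AngIV arrays, 10.05, 9.81, 10.20 and 10.27 on the DM arrays and 10.24, 10.40, 10.60 and 10.41 on the NC arrays. Every AngIV array was below every NC array, and the highest DM array lay just above the lowest NC array. The group means were 9.90 ± 0.22 in AngIV, 10.08 ± 0.20 in DM and 10.41 ± 0.14 in NC (SD, n = 4 each).

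The Hspa5 change was -0.52 ± 0.13 for AngIV against NC, with a 95% interval of -0.80 to -0.24, and it missed the threshold (limma adjusted p = 0.0519). For DM against NC it was -0.33 ± 0.13 (limma adjusted p = 0.377) and -0.20 without the 5 arrays of high Myl7 signal, which leaves 1 DM array (limma adjusted p = 0.998). For the mean of the DM and AngIV groups against NC it was -0.42 ± 0.11 (limma adjusted p = 0.0757). Between AngIV and NC it passed in 11 of 23 alternatives, with changes of -0.61 to -0.45 and adjusted p of 0.0163 to 0.160. With the atrial marker mean as a covariate the change was -0.60 (limma adjusted p = 0.0342), and without the 5 arrays of high Myl7 signal it was -0.51 (limma adjusted p = 0.160).

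Hyou1 (GRP170) helps BiP exchange its nucleotide. Its log2 signal was 7.10, 6.82, 6.89 and 6.74 on the AngIV arrays, 7.30, 6.67, 7.06 and 7.17 on the DM arrays and 7.11, 7.31, 7.43 and 7.36 on the NC arrays. All AngIV arrays were below all NC arrays, though the nearest arrays almost touched, while DM overlapped both groups. The change for AngIV against NC was -0.42 ± 0.13 (limma adjusted p = 0.112), and for DM against NC -0.25 ± 0.13 (limma adjusted p = 0.536). Without DM replicate 2 the DM change was -0.13 (limma adjusted p = 0.824).

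Other abundant chaperones of the lumen had changes close to 0 for AngIV against NC. Hsp90b1 (GRP94), an ER form of HSP90, had 9.33, 9.43, 9.35 and 9.21 on the AngIV arrays, 9.39, 9.40, 9.36 and 9.39 on the DM arrays and 9.28, 9.43, 9.54 and 9.32 on the NC arrays. The groups overlapped, and the 95% interval of AngIV against NC was -0.26 to 0.13. Calr (calreticulin), a lectin chaperone and calcium store protein, had 9.46, 9.27, 9.28 and 9.10 on the AngIV arrays, 9.34, 9.003, 9.22 and 9.28 on the DM arrays and 9.22, 9.35, 9.49 and 9.26 on the NC arrays. Its groups overlapped too, with a 95% interval of -0.28 to 0.18.

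Dnajb9 (ERdj4), a BiP cochaperone and classic target of XBP1, had 7.09, 7.02, 7.22 and 7.44 on the AngIV arrays, 7.11, 7.31, 7.22 and 7.41 on the DM arrays and 7.14, 7.32, 7.41 and 7.29 on the NC arrays. The groups overlapped, with a 95% interval of -0.34 to 0.14 for AngIV against NC. Canx (calnexin), the membrane-bound partner of calreticulin, averaged 8.95 ± 0.16 in AngIV, 8.87 ± 0.07 in DM and 8.85 ± 0.08 in NC. Of the remaining BiP cochaperones, Dnajb11 (ERdj3) averaged 5.69 ± 0.18 in AngIV, 5.70 ± 0.26 in DM and 5.58 ± 0.17 in NC, and Dnajc3 (p58IPK) 7.07 ± 0.04 in AngIV, 7.03 ± 0.22 in DM and 7.001 ± 0.22 in NC. Sdf2l1, a partner of ERdj3, averaged 4.68 ± 0.26 in AngIV, 4.67 ± 0.33 in DM and 4.81 ± 0.16 in NC and was below the negative controls in each group.

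**Figure D3:**
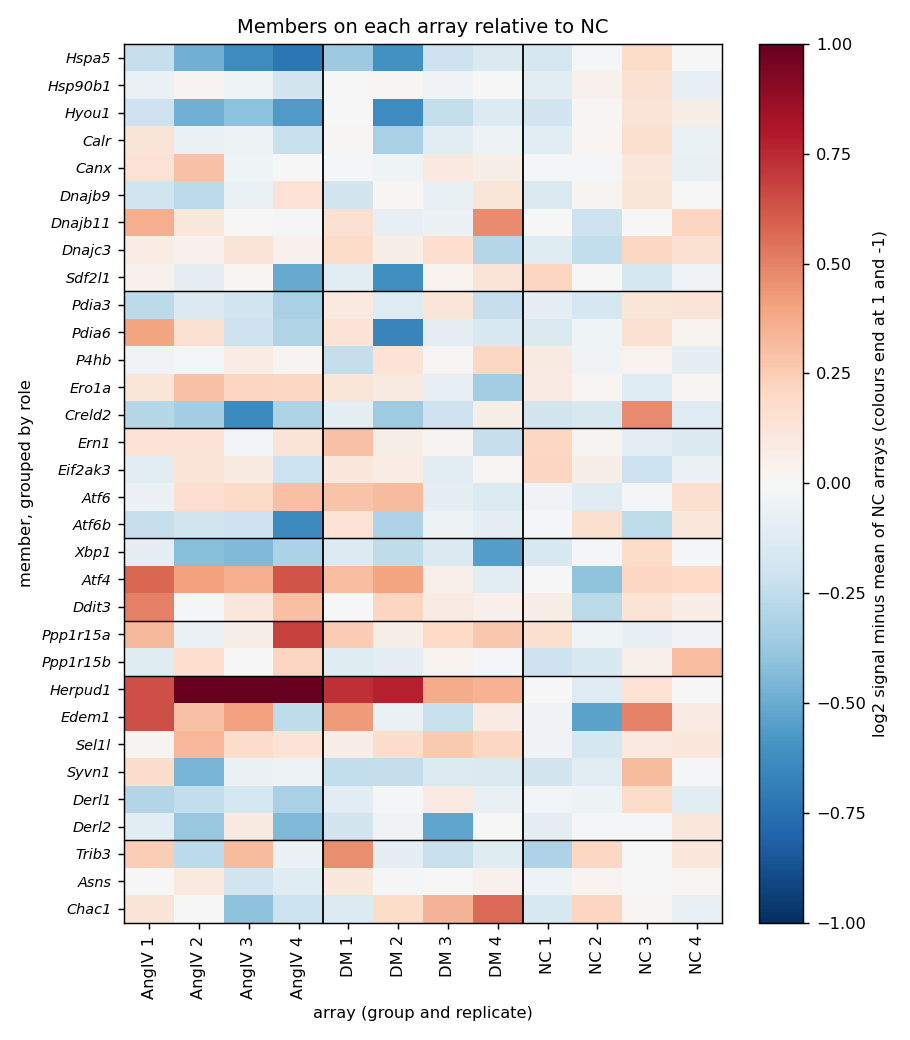
Log2 signal of each tested member on each array minus the mean of its 4 NC arrays, with members grouped by role, the AngIV, DM and NC arrays from left to right, and colours that end at 1 and -1. Herpud1 is red on all 8 AngIV and DM arrays, Hspa5 is blue on them and Atf4 is red on the 4 AngIV arrays.

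Enzymes of disulfide formation gave 0 calls among 5 tested members, beside 0% to 2.15% of all genes over the comparisons. For AngIV against NC 2 of them, Pdia3 and Creld2, were lower at an unadjusted p under 0.05 (40%, beside 18.6% of all genes). For AngIV against DM 1, Ero1a, was higher (20%, beside 8.78%). Ero1a, the oxidase that recharges protein disulfide isomerase, had 6.29, 6.47, 6.39 and 6.38 on the AngIV arrays, 6.30, 6.27, 6.09 and 5.82 on the DM arrays and 6.26, 6.19, 6.05 and 6.20 on the NC arrays. All AngIV arrays lay above all NC arrays, and the lowest AngIV array was just below the highest DM array. The change was 0.26 ± 0.11 for AngIV against DM (limma adjusted p = 0.535) and 0.21 ± 0.11 against NC (limma adjusted p = 0.327). Without DM replicate 4 the change against DM was 0.16 (limma adjusted p = 0.814). Ero1a is also known as a target of hypoxia signalling.

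Pdia3 (ERp57), an isomerase that works with calnexin and calreticulin, had 7.48, 7.60, 7.55 and 7.42 on the AngIV arrays, 7.85, 7.61, 7.86 and 7.52 on the DM arrays and 7.66, 7.58, 7.87 and 7.88 on the NC arrays. The groups overlapped, and the change for AngIV against NC was -0.23 ± 0.11 (limma adjusted p = 0.267). Creld2, an ER protein reported to have isomerase activity, had 5.23, 5.18, 4.88 and 5.21 on the AngIV arrays, 5.43, 5.17, 5.31 and 5.58 on the DM arrays and 5.34, 5.36, 5.99 and 5.39 on the NC arrays. All AngIV arrays were below all NC arrays, but the AngIV and DM means were below the negative controls, so no fold is given (limma adjusted p = 0.171 for AngIV against NC). Pdia6 averaged 7.61 ± 0.32 in AngIV, 7.41 ± 0.34 in DM and 7.60 ± 0.13 in NC, and P4hb, the founding protein disulfide isomerase, averaged 8.35 ± 0.05 in AngIV, 8.37 ± 0.19 in DM and 8.34 ± 0.08 in NC.

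None of the 4 stress sensors passed the test in any of the 4 comparisons, in which 0% to 2.15% of all genes were called. For AngIV against NC 1 of them, Atf6b, was lower at an unadjusted p under 0.05 (25%, beside 18.6% of all genes). Ern1 (IRE1 alpha) had 6.68, 6.68, 6.51 and 6.67 on the AngIV arrays, 6.83, 6.60, 6.56 and 6.31 on the DM arrays and 6.74, 6.57, 6.45 and 6.40 on the NC arrays. The groups overlapped, with a 95% interval of -0.15 to 0.35 for AngIV against NC. Eif2ak3 (PERK) had 5.67, 5.91, 5.86 and 5.56 on the AngIV arrays, 5.88, 5.85, 5.66 and 5.80 on the DM arrays and 5.99, 5.84, 5.56 and 5.72 on the NC arrays. These overlapped as well, with an interval of -0.27 to 0.22.

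Atf6 had 7.79, 8.02, 8.04 and 8.14 on the AngIV arrays, 8.13, 8.16, 7.75 and 7.71 on the DM arrays and 7.81, 7.73, 7.83 and 8.01 on the NC arrays. The groups overlapped, and the interval for AngIV against NC was -0.12 to 0.42. Atf6b, a relative of Atf6 that is cut in the same way, had 6.10, 6.15, 6.12 and 5.69 on the AngIV arrays, 6.48, 6.02, 6.28 and 6.25 on the DM arrays and 6.32, 6.49, 6.08 and 6.44 on the NC arrays. AngIV replicate 4 was far below the other AngIV arrays, the remaining arrays overlapped with NC, and the change was -0.32 ± 0.13 (limma adjusted p = 0.220), or -0.21 without that array (limma adjusted p = 0.455).

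None of the 3 transcription factors passed the test in any comparison, beside 0% to 2.15% of all genes. For AngIV against NC 2 had a positive and 1 a negative change, and 1 higher and 1 lower passed unadjusted (66.7%, beside 18.6% of all genes). Atf4, the factor made when eIF2 is phosphorylated, had 7.93, 7.76, 7.72 and 7.99 on the AngIV arrays, 7.66, 7.75, 7.41 and 7.24 on the DM arrays and 7.35, 6.96, 7.56 and 7.55 on the NC arrays. All AngIV arrays lay above all NC arrays, 1 DM array lay above the lowest AngIV array, and DM and NC overlapped. The change was 0.49 ± 0.15 for AngIV against NC, with a 95% interval of 0.18 to 0.80, and it missed the threshold (limma adjusted p = 0.0862), which it passed in 2 of 23 alternatives (adjusted p of 0.0397 to 0.199). Against DM the AngIV change was 0.33 ± 0.15 (limma adjusted p = 0.545).

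Xbp1, whose mRNA is spliced by IRE1, had 6.76, 6.43, 6.42 and 6.54 on the AngIV arrays, 6.72, 6.60, 6.71 and 6.30 on the DM arrays and 6.70, 6.85, 7.04 and 6.84 on the NC arrays. The AngIV and DM arrays overlapped, and 1 AngIV and 2 DM arrays reached into the NC range. The change was -0.32 ± 0.12 for AngIV against NC (limma adjusted p = 0.170) and -0.27 ± 0.12 for DM against NC (limma adjusted p = 0.435). The DM change was -0.18 without DM replicate 4 (limma adjusted p = 0.575) and -0.13 without the arrays of high Myl7 signal (limma adjusted p = 0.998).

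Ddit3 (CHOP), a factor that ATF4 induces and that is linked to cell death, had 7.35, 6.83, 6.95 and 7.14 on the AngIV arrays, 6.84, 7.05, 6.92 and 6.89 on the DM arrays and 6.91, 6.57, 6.98 and 6.91 on the NC arrays. The groups overlapped, and the change for AngIV against NC was 0.23 ± 0.12 (limma adjusted p = 0.348). It was 0.14 without NC replicate 2 (limma adjusted p = 0.623) and 0.13 without AngIV replicate 1 (limma adjusted p = 0.618). A second, dimmer Ddit3 probe set ran from 5.63 to 6.24 on the AngIV arrays, 5.79 to 6.15 on the DM arrays and 5.64 to 5.90 on the NC arrays.

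Of the members downstream of ATF4, Ppp1r15a, Chac1, Trib3, Asns and Fgf21 had group means below the negative controls, while Ddit3 lay above them. Ppp1r15a (GADD34), which directs the phosphatase that restores eIF2, had 4.23, 3.85, 3.96 and 4.59 on the AngIV arrays, 4.16, 3.97, 4.10 and 4.18 on the DM arrays and 4.06, 3.87, 3.82 and 3.87 on the NC arrays. Its groups overlapped below the negative controls, AngIV replicate 4 being the highest array. Ppp1r15b (CReP), the constitutive counterpart, averaged 5.80 ± 0.16 in AngIV, 5.69 ± 0.07 in DM and 5.74 ± 0.23 in NC, with 0 calls in any comparison.

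Chac1, which breaks down glutathione, had 3.83, 3.70, 3.30 and 3.497 on the AngIV arrays, 3.57, 3.89, 4.05 and 4.28 on the DM arrays and 3.56, 3.92, 3.72 and 3.64 on the NC arrays. AngIV and DM overlapped below the negative controls, and limma's adjusted p was 0.535 for AngIV against DM. Trib3, a pseudokinase induced by CHOP, had 4.89, 4.39, 4.97 and 4.59 on the AngIV arrays, 5.11, 4.56, 4.43 and 4.53 on the DM arrays and 4.34, 4.85, 4.64 and 4.76 on the NC arrays. Its groups overlapped below the negative controls, with no sorting by group.

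Asns (asparagine synthetase) had 5.24, 5.34, 5.06 and 5.12 on the AngIV arrays, 5.35, 5.23, 5.25 and 5.29 on the DM arrays and 5.19, 5.27, 5.25 and 5.27 on the NC arrays. These 12 values, also below the negative controls, spanned 5.06 to 5.35. Fgf21, a hormone secreted under stress by liver and other tissues, had 2.98, 2.92, 3.07 and 3.26 on the AngIV arrays, 3.05, 3.26, 2.99 and 3.33 on the DM arrays and 2.999, 3.03, 2.997 and 3.10 on the NC arrays. All 12 values lay under 3.40, the filter on mean signal, so that Fgf21 was not tested.

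**Figure D4:**
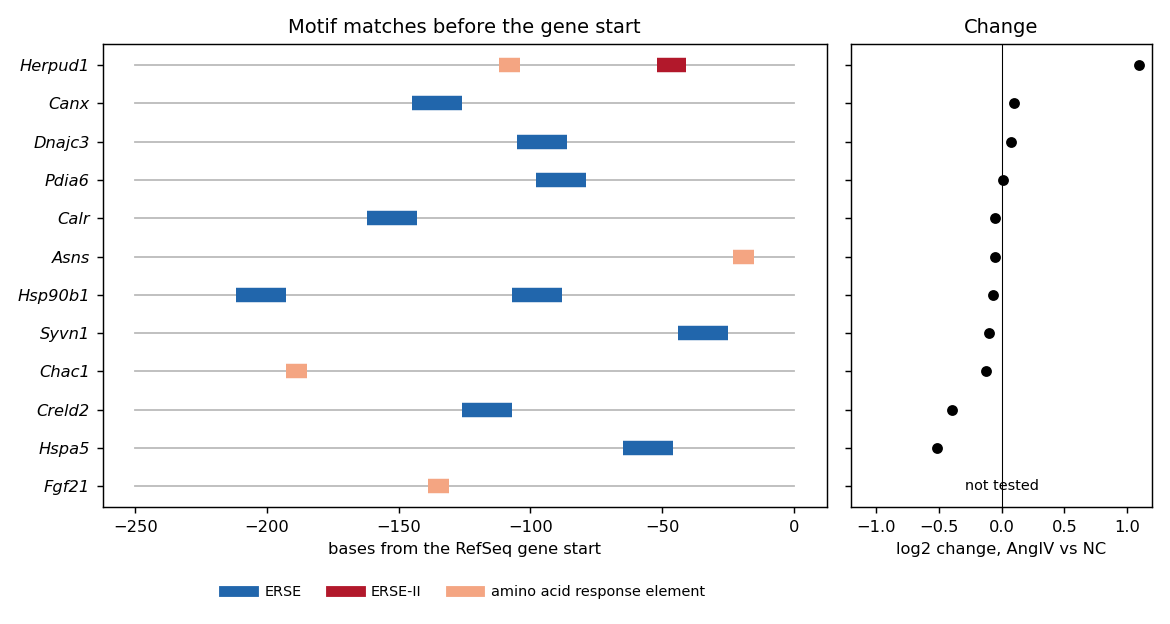
Positions of motif matches in the 250 bases before the RefSeq start of the 12 members that hold one (left, in bases from the start), beside the log2 change of AngIV against NC (right), with genes in order of that change. Herpud1, with ERSE-II and the amino acid response element, stands at 1.09, and Hspa5, with ERSE, at -0.52. The Herpud1 window ends before the last base of a possible ERSE, which is therefore not drawn.

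Set against the sequences above, genes that share the ERSE had changes of both signs in each comparison. The 8 members with an ERSE match had log2 changes of -0.52 (Hspa5) to 0.10 (Canx) for AngIV against NC, 3 positive and 5 negative, with a median of -0.06. The 20 other tested members with a window ran from -0.32 to 1.09, with a median of 0.04. Herpud1, at 1.09, is counted among these 20, though its window ends before the last base of a possible ERSE. For DM against NC the medians were -0.13 with the element (2 positive, 6 negative) and 0.03 without it. For AngIV against DM the order turned, with medians of 0.05 with the element (5 positive, 3 negative) and -0.01 without it. Of the 3 tested members with the amino acid response element, Herpud1 had a change of 1.09 for AngIV against NC, while Asns and Chac1, both below the negative controls, had -0.05 and -0.13. All 3 had a positive change for DM against NC, with a median of 0.24, beside -0.01 over the 25 members without the element. That median is the value of Chac1, and Asns was at 0.04, so it rests on a signal near background. For AngIV against DM 1 was positive and 2 negative, with a median of -0.09, the value of Asns, beside 0.00 without the element. Herpud1 was the 1 member with matches to 2 of the 4 motifs. These values are descriptions with no test.

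Beyond the 37 genes, 5 further lists of ER and integrated stress response genes held 156 genes, of which 143 were tested. Between AngIV and NC 1 of them rose and 4 fell, or 3.497%, beside 2.15% of all genes, with a median change of 0.03, beside 0.00. Between AngIV and DM and between DM and NC 0 were called, beside 0% and 0.022% of all genes. For the mean of the DM and AngIV groups against NC 0 rose and 3 fell, or 2.10%, beside 1.32%. At an unadjusted p under 0.05 the shares lay below those of all genes. There were 10 higher and 15 lower between AngIV and NC (17.5%, beside 18.6%), 8 higher and 4 lower between AngIV and DM (8.39%, beside 8.78%), and 3 higher and 9 lower between DM and NC (8.39%, beside 10.7%). The 4 that fell were Dad1, Stt3a, Serpinh1 and Creb3l1, and the 1 that rose was Ddrgk1.

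Dad1, a subunit of the oligosaccharyltransferase that attaches sugar chains to nascent proteins, had 9.19, 8.99, 9.20 and 9.22 on the AngIV arrays, 8.94, 9.39, 9.78 and 9.48 on the DM arrays and 9.94, 10.10, 9.78 and 9.93 on the NC arrays. Every AngIV and every DM array was below every NC array, though the nearest DM and NC arrays, both at 9.78, almost touched. It fell in AngIV against NC by 0.79 ± 0.15 on the log2 scale (SE; limma adjusted p = 0.0143), and the catalytic subunit Stt3a fell by 0.42 ± 0.10 (limma adjusted p = 0.0471). Dad1 was called in 23 of 23 alternatives, and Stt3a in 6 of 23 (adjusted p of 0.0142 to 0.208). The Stt3a call was lost with the replicate block (limma adjusted p = 0.0662) and on leaving out any single array other than DM replicate 1. For DM against NC these genes gave -0.54 ± 0.15 (limma adjusted p = 0.197) and -0.32 ± 0.10 (limma adjusted p = 0.275), and Dad1 gave -0.24 without the arrays of high Myl7 signal (limma adjusted p = 0.998). The list of translocon, signal peptidase and oligosaccharyltransferase genes had 29 tested members, and no other was called in any comparison. The 2 calls between AngIV and NC were 6.90% of it, beside 2.15% of all genes.

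Serpinh1 (HSP47), the chaperone of collagen, had 7.22, 6.81, 6.57 and 6.63 on the AngIV arrays, 7.26, 6.95, 7.13 and 7.15 on the DM arrays and 7.44, 7.36, 7.65 and 7.72 on the NC arrays. All AngIV and all DM arrays were below all NC arrays. It fell in AngIV against NC by 0.73 ± 0.14 (SE; limma adjusted p = 0.0158), and the collagen gene Col3a1, a fibroblast marker, fell by 1.17 ± 0.20 (limma adjusted p = 0.00970). Of 7 fibroblast markers 6 were lower (85.7%, beside 49.4% of all genes). Of the 7, 1 was called (14.3%, beside 2.15%) and 3 were lower at an unadjusted p under 0.05 (42.9%, beside 18.6%). For DM against NC Serpinh1 gave -0.42 ± 0.14 (limma adjusted p = 0.285) and Col3a1 -0.45 ± 0.20 (limma adjusted p = 0.439). There too 6 of 7 fibroblast markers were lower (85.7%, beside 50.4% of all genes), 0 were called (beside 0.022%) and 2 were lower unadjusted (28.6%, beside 10.7%). The Serpinh1 call was lost without AngIV replicate 3 or 4 and without the arrays of high Myl7 signal, with adjusted p of 0.0553, 0.0558 and 0.131, and the Col3a1 call without those arrays (0.125). The part of fibroblast content in this was not tested. Creb3l1 (OASIS), a membrane-bound factor of matrix-secreting cells, gave -0.60 ± 0.13 (limma adjusted p = 0.0290) at means below the negative controls. That call was lost without NC replicate 1, 2 or 4, AngIV replicate 3 or 4, or the arrays of high Myl7 signal (adjusted p up to 0.127). For DM against NC Creb3l1 gave -0.43 ± 0.13 (limma adjusted p = 0.233), with every DM array below every NC array.

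Ddrgk1, an adaptor of the UFM1 pathway that modifies proteins at the ER, had 7.78, 7.79, 8.02 and 8.12 on the AngIV arrays, 7.48, 7.83, 7.55 and 7.71 on the DM arrays and 7.48, 7.37, 7.49 and 7.40 on the NC arrays. All AngIV arrays were above all NC arrays, and it rose by 0.49 ± 0.11 (SE; limma adjusted p = 0.0308). The call held in 15 of 23 alternatives. It was lost with the replicate block (limma adjusted p = 0.0580). It was also lost on leaving out any single NC array, AngIV replicate 3 or 4, or the arrays of high Myl7 signal (adjusted p up to 0.116). Among 36 tested genes of eIF2 kinases, eIF2B and ATF4 targets, 0 were called between AngIV and NC, beside 2.15% of all genes. Unadjusted, 5 passed, all of them higher in AngIV (13.9%, beside 18.6% of all genes). A positive change was found for 25 of the 36 (69.4%, beside 50.6% of all genes), with a median of 0.10, beside 0.00. Between AngIV and DM it was found for 26 (72.2%, beside 52.9%), with a median of 0.09, beside 0.01. Between DM and NC it was found for 20 (55.6%, beside 49.6%), with a median of 0.02, beside -0.00. The smallest p between AngIV and NC belonged to the amino acid transporter genes Slc38a2 at 0.43 ± 0.12 (limma adjusted p = 0.0710) and Slc3a2 at 0.41 ± 0.12 (limma adjusted p = 0.0819). The Slc38a2 signal was 9.44, 9.49, 9.68 and 9.47 on the AngIV arrays, 9.39, 9.53, 9.37 and 9.09 on the DM arrays and 8.83, 9.30, 9.07 and 9.14 on the NC arrays. All AngIV arrays lay above all NC arrays, and DM replicate 4 lay within the NC range.

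Of 22 further genes of ER-associated degradation, limma called 0 in any comparison, beside 0% to 2.15% of all genes. Between AngIV and NC 3 passed unadjusted (13.6%, beside 18.6%). Erlec1, a lectin of that pathway, gave 0.29 ± 0.09 for AngIV against NC (limma adjusted p = 0.112), and Herpud2, the paralog of Herpud1, gave 0.25 ± 0.09 (limma adjusted p = 0.165). Among 34 other chaperones and folding enzymes, the isomerase gene Fkbp11 gave -0.45 ± 0.13 at means below the negative controls (limma adjusted p = 0.0757). For AngIV against DM the smallest p of the 5 lists belonged to Eif2ak2, the kinase PKR, at 0.46 ± 0.15 (limma adjusted p = 0.464).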

How the data were processed

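RNA of 12 hearts, 4 per group, was extracted with Trizol, and biotin-labelled cRNA from 6 µg of total RNA was hybridised to Affymetrix arrays, per the labels' protocols. The deposited values are log2 signals per probe set, made by the authors with RMA, per the submitters' processing notes. RMA version, probe set definition and genome build are not given in the sources used here. RMA forces all arrays to 1 distribution, which hides changes in total mRNA, and its summary compresses fold changes.

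From the 29129 probe sets, those with 1 gene symbol in the platform annotation (19572) gave 19505 genes, each by its probe set of highest mean. The dimmest 30% were left out, leaving 13653 genes. The log2 values were fitted with limma 3.58.1 in R 4.3.3 with 1 mean per group over all 12 arrays and adjusted by Benjamini-Hochberg over all tested genes. Calls are at an adjusted p under 0.05. Folds are left out, and log2 differences are named as near background, where either group mean lay below background, taken as the 95th percentile of 5222 negative control probe sets. Arrays have no read depth, so their number limits the precision. The fit was tested on simulated data.

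Values on every array are given for fixed members (Hspa5, Hsp90b1, Calr, Ern1, Eif2ak3, Atf6, Xbp1, Atf4, Ddit3, Herpud1, Dnajb9, Trib3, Asns, Fgf21) and for the 8 members with the smallest p in each comparison. From the other lists come the genes called and those with the smallest p. The members and lists were chosen with earlier results of these data known. Alternatives changed the filter on low signal, the prior variance, the samples in the fit, array weights, centring, an atrial covariate, a replicate block and the arrays left out. Promoter windows are RefSeq sequence of GRCm38.p6, matched by symbol for 29 of 33 members.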

Additional observations from a re-analysis of the deposited data

Results flagged for a closer look

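In 4 of 99 sets of 4 arrays, 1 array stood apart from the other arrays of its group by Dixon's 95% critical value, and chance gives about 1 in 20 such sets. Creld2 was lowest on AngIV replicate 3, at 4.88 beside 5.18 to 5.23 on the other AngIV arrays. It was highest on NC replicate 3, at 5.99 beside 5.34 to 5.39 on the other NC arrays. Ern1 was lowest on AngIV replicate 3, at 6.51 beside 6.67 to 6.68. Atf6b was lowest on AngIV replicate 4, at 5.69 beside 6.10 to 6.15. Without that array the Atf6b change for AngIV against NC was -0.21, beside -0.32 with it.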

How the results depend on the processing

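The number of arrays, signals near background and the compression of RMA limit these results. The count of ER genes called between AngIV and NC, 1, was 2 with the dimmest 50% of genes left out, a robust prior, array weights, median centring, the atrial covariate and the compared groups alone, 3 with genes above the negative controls and with a trend in the prior, and 0 without the 5 arrays of high Myl7 signal, an alternative chosen after seeing the data that leaves 2 NC arrays and 1 DM array, assumed to vary like the others. Leaving out 1 array gave 1 to 2 (2 without DM replicate 2, DM replicate 4 or AngIV replicate 1). For the mean of the DM and AngIV groups, also 1, it was 2 with the dimmest 50% left out, genes above the negative controls, the trend and the atrial covariate, 0 without the Myl7-high arrays, and 0 to 2 with 1 array left out (0 without NC replicate 2, 2 without AngIV replicate 1). Over all genes, the calls between AngIV and NC (293) became 492, 594, 576 and 466 with the dimmest 50% left out, genes above the negative controls, the trend and the compared groups alone, 102 without the Myl7-high arrays, and 104 to 469 with 1 array left out (107 without NC replicate 2, 163 and 185 without NC replicates 1 and 4, 155, 106 and 104 without AngIV replicates 2, 3 and 4, and 469 without DM replicate 1). Those between DM and NC (3) became 20, 24, 29 and 5 under the same alternatives, 5 with the atrial covariate, 0 without the Myl7-high arrays, and 3 to 30 with 1 array left out (30 without DM replicate 4, 9 without DM replicate 3, 10 and 5 without NC replicates 1 and 2). Those between AngIV and DM (0, with 1199 at an unadjusted p under 0.05) were 0 to 5 with 1 array left out (5 without AngIV replicate 2, 1 without DM replicate 2). Those for the mean of the DM and AngIV groups (180) became 328, 425, 433 and 325 with the dimmest 50% left out, genes above the negative controls, the trend and the atrial covariate, 1 without the Myl7-high arrays, and 49 to 338 with 1 array left out (77, 53, 49 and 61 without NC replicates 1 to 4, 77 and 338 without DM replicates 2 and 4, 113 and 86 without AngIV replicates 2 and 3).

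Changes of sign between AngIV and NC arose in genes whose change was near 0. Eif2ak3 (-0.03) became 0.0030 with array weights and 0.034 with the atrial covariate, and ran from -0.098 to 0.045 with 1 array left out. Trib3 (0.06) became -0.10 without the Myl7-high arrays and ran from -0.043 to 0.17 with 1 array left out, while Calr (-0.05) ran from -0.11 to 0.0041 and Syvn1 (-0.0999) from -0.19 to 0.022. The differences of Trib3 and Syvn1 are near background, their means lying below the negative controls in each group. The causes of the changes of sign were not tested. Of the values of single ER genes under alternatives, 1022 kept their direction and side of the threshold, 18 came past it (Hspa5 and Atf4), 3 fell short of it (Herpud1) and 11 changed sign. Of those of genes from the further lists and markers, 1054 kept both, 21 came past it, 96 fell short of it and 0 changed sign. The median change of the members moved by less than 0.14 in all alternatives, the largest SD of the members' median between arrays of a group. That bound is wide beside medians near 0, so staying within it is a weak check. Replicate numbers occur in all groups, and deviations of same-numbered arrays correlated at -0.12 to 0.21. Differently numbered arrays were not set beside these, so the values cannot decide on a shared batch or pairing, and the main fit assumed none. With the replicate block 1 ER gene was called between AngIV and NC (Herpud1, 1.09, limma adjusted p = 0.0205) and 1 for the mean of the DM and AngIV groups (Herpud1, 0.82, limma adjusted p = 0.0381), and 218 and 138 genes were called overall.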

Other observations

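Outside the ER, 18 tested genes of cytosolic and mitochondrial heat shock proteins, a list chosen with earlier results known, gave 0 higher and 1 lower call between AngIV and NC (5.56%, beside 2.15% of all genes). At an unadjusted p under 0.05 there were 0 higher and 4 lower (22.2%, beside 18.6%). The change was negative in 15 of 18 (83.3%, beside 49.4% of all genes), with a median of -0.14, beside 0.00. The gene called was Hspb1 (HSP27), a small heat shock protein of muscle, which fell by 0.37 ± 0.09 (SE; limma adjusted p = 0.0485). This call was made in 9 of 23 alternatives (adjusted p of 0.0145 to 0.131) and lost with the replicate block (limma adjusted p = 0.0859). Hspb1 also lost it without NC replicate 1, 2 or 4, DM replicate 2, 3 or 4, or AngIV replicate 2, 3 or 4. Its log2 signal was 7.85, 7.71, 7.66 and 7.67 on the AngIV arrays, 8.08, 8.199, 8.11 and 8.12 on the DM arrays and 8.11, 8.12, 7.94 and 8.19 on the NC arrays. All AngIV arrays were below all DM and NC arrays, and the change against DM was -0.40 ± 0.09 (limma adjusted p = 0.318). Chordc1, an HSP90 cochaperone, gave -0.47 ± 0.14 for AngIV against NC (limma adjusted p = 0.0867) and -0.50 ± 0.14 for DM against NC (limma adjusted p = 0.208). The list was also mostly lower in DM than in NC, with 14 of 18 changes negative (77.8%, beside 50.4% of all genes) and a median of -0.09. There 0 were called, and 0 higher and 5 lower passed unadjusted (27.8%, beside 10.7%). Between AngIV and DM 9 changes were positive and 9 negative, with a median of -0.00.

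After the mean of each group was subtracted, Hspa5 was compared with the 31 other tested members over the 12 arrays. The highest correlations were with Calr (Pearson's r = 0.858, permutation p = 0.00383; Spearman's rho = 0.790, permutation p = 0.00878), Pdia6 (r = 0.827, permutation p = 0.00757; rho = 0.797, permutation p = 0.0143) and Hyou1 (r = 0.781, permutation p = 0.0114; rho = 0.727, permutation p = 0.0212). At the other end, r was negative with Atf6 (r = -0.733, permutation p = 0.0224), Herpud1 (r = -0.697, permutation p = 0.0430) and Ero1a (r = -0.681, permutation p = 0.0241). Their rho was -0.720, -0.671 and -0.657. These are two-sided tests with 100000 permutations within groups. None of the 31 relations passed after Benjamini-Hochberg adjustment, the lowest adjusted permutation p being 0.117 for r and 0.159 for rho. Without the 2 arrays farthest from the median of Hspa5 (AngIV replicate 1 and DM replicate 2), r was 0.740 for Calr, 0.661 for Pdia6 and 0.609 for Hyou1. It was -0.572 for Atf6, -0.503 for Herpud1 and -0.623 for Ero1a. Within each group, with all its arrays, r for Herpud1 was -0.88 in AngIV, -0.91 in DM and 0.60 in NC. For Atf6 it was -0.98 in AngIV, -0.89 in DM and 0.05 in NC. The negative pooled r of Herpud1 and Atf6 was therefore not seen within NC. For Ero1a r was negative in each group, at -0.52 in AngIV, -0.78 in DM and -0.98 in NC. Values within a group rest on few arrays and were not tested. The arrays share normalization and tissue composition.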
